A study of Mus musculus with 8 samples.

Results

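The genes described here are the ligands and receptors of axon guidance, that is the semaphorins with their plexin and neuropilin receptors, the ephrins with the Eph receptors, the Slits with the Robo receptors, the netrins and netrin-G proteins with the Dcc, neogenin and Unc5 receptors, and Draxin. They were picked by a rule on gene names, and 70 of the 20926 genes in the table of values belong to these families, 37 as ligands and 33 as receptors or co-receptors. The RNA came from molars of mice at postnatal (PN) day 3, labelled C57BL/6, whereas the study's methods describe its mice as of mixed background. Ezh2fl/fl mice were the control (4 libraries), and Osr2KI-Cre;Ezh2fl/fl mice, called Osr2-Cre;Ezh2fl/fl from here on, were the mutant (4 libraries), so that all mice carried the floxed Ezh2 allele and the Cre knock-in at Osr2 was named for the mutant only. Ezh2 is the histone methyltransferase of Polycomb repressive complex 2, and the Osr2-driven Cre is active in mesenchymal cells of the tooth and in the bone around it, while epithelial cells are spared. The effect of the knock-in at Osr2 and that of the loss of Ezh2 cannot be told apart in this design.

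Axon guidance proteins steer growing nerve fibres by attraction or repulsion, and the same ligand and receptor pairs act between other cells, in particular in blood vessels and in mesenchyme. Secreted class 3 semaphorins signal through plexins, mostly together with neuropilins, whereas the membrane-bound semaphorins bind plexins directly. Ephrins and Eph receptors are both held at the cell surface and signal in either direction upon cell contact. Slits act through Robo receptors, and netrins through Dcc, neogenin and Unc5 receptors. In the developing tooth, Sema3A from the dental mesenchyme is known to keep sensory nerve fibres out of the papilla until the crown has formed, and the dental pulp becomes vascularised and innervated around and after birth.

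Of the 70 genes, 5 passed the test for a difference between the genotypes, 4 of them lower and 1 higher in the Osr2-Cre;Ezh2fl/fl molars. Their promoters are shown as the sequence at which transcription of these 5 genes starts. Each runs from 250 bases before to 50 bases after the RefSeq start of the gene on GRCm38.p6, the build of the deposited coordinates, and is written 5′ to 3′ on the strand of the gene with CG dinucleotides in capitals. The regions are chr5:14025026-14025325 on the plus strand for Sema3e, chr9:57939862-57940161 on the plus strand for Sema7a, chr4:141300971-141301270 on the plus strand for Epha2, chr8:8661193-8661492 on the minus strand for Efnb2, and chr7:45683772-45684071 on the plus strand for Ntn5.
Sema3e: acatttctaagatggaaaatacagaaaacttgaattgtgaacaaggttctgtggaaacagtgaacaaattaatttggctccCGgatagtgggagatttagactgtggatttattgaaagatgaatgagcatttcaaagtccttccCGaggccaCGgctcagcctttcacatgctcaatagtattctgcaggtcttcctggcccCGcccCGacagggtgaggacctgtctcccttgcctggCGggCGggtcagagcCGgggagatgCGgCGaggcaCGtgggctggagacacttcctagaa
Sema7a: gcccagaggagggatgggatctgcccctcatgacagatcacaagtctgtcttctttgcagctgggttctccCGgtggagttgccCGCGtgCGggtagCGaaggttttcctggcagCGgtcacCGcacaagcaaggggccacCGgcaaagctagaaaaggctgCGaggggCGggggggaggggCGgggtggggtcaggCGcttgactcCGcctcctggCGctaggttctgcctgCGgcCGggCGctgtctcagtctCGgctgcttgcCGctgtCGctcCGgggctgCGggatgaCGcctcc
Epha2: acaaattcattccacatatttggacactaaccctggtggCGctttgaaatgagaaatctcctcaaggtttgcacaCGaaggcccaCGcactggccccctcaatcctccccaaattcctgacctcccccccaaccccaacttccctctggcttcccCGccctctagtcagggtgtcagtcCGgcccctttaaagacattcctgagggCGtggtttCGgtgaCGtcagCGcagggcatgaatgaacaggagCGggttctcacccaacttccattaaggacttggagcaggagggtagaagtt
Efnb2: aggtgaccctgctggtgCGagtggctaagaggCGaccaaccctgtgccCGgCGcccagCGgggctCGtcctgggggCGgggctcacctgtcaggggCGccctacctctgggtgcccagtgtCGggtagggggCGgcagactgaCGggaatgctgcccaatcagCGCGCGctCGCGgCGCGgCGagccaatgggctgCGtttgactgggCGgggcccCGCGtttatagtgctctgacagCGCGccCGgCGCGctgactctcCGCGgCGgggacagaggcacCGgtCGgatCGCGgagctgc
Ntn5: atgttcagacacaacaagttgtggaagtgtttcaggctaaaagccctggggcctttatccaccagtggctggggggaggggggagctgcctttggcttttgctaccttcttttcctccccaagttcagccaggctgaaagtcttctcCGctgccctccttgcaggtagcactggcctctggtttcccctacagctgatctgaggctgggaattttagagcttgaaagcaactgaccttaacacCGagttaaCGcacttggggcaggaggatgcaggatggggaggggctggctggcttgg

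The CG dinucleotide, written CG here and found on both strands by its symmetry, is the base pair step on which CpG islands are defined. The Efnb2 promoter held 35 of them, more than 93.0% of the 32851 promoters in the RefSeq table, and the Sema7a promoter held 23, more than 78.5%. Sema3e and Epha2 lay near the middle with 11 and 10, and Ntn5 had 3, with 23.3% of promoters having fewer. A promoter was found for 60 of the 70 genes, giving 76 promoters in all, which held a median of 20 CG dinucleotides against 7 over all promoters. At least 1 CG was present in 94.6% of all promoters. These are features of the reference sequence and no mark on these promoters was measured in these libraries.

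Each library had an estimated depth of 48.3 M to 68.8 M reads. The deposited values, called normalized read values here, are scaled so that their 75th percentile was between 38.455 and 38.463 in every library, and they carry no factor for gene length. Ezh2 itself was 55.0, 38.3, 39.6 and 39.0 in the control libraries 1 to 4 and 35.2, 30.1, 23.2 and 36.0 in the Osr2-Cre;Ezh2fl/fl libraries. All mutant values were below all control values, with a log2 fold change of -0.46 ± 0.16 (SE) that did not pass limma's test (adjusted p = 0.235, exact permutation p = 0.0286). These values cover every cell in a sample, and the Cre spares epithelial cells. By immunofluorescence, the study detected neither Ezh2 nor its histone mark H3K27Me3 in the mesenchyme of newborn mutant molars. The labels state that the epithelium was removed, yet the enamel genes Amelx, Ambn and Enam were high in control libraries 3 and 4 and mutant library 3, where their mean log2(value + 1) was 12.08, 13.02 and 11.47. It lay between 7.10 and 9.37 in the other 5 libraries. When this enamel level was added to the model, Ezh2 had a log2 fold change of -0.64 and passed limma's test (adjusted p = 0.0274). Keratins of the epithelium were high in all 8 libraries, with Krt5 at 863 to 1992 in the control and 827 to 1127 in the mutant libraries and Krt14 at 329 to 938 and 365 to 637. These 3 libraries stand apart in what follows. The sources used here do not say whether each sample was a single animal or a pool, so p-values measure the spread between these samples.

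Most of the guidance families were expressed in these PN day 3 molar samples, which hold epithelial transcripts besides those of the mesenchyme. Of the 70 genes, 57 had a control mean of at least 10 and 13 a control mean of at least 100. To compare genes with each other, values were divided by the length of the gene's exons in kilobases. On this scale the netrin receptor Unc5b was 65.6 ± 1.85 (SD, n = 4) and Plxnd1, the receptor of Sema3E, was 63.1 ± 6.06 in the control libraries. Their ranges overlapped and the order between them is not resolved. Plxnb2, a receptor of class 4 semaphorins, followed at 44.4 ± 1.33, apart from both.

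Neo1 (33.4 ± 1.88), Efnb1 (31.4 ± 0.689) and Efna1 (29.8 ± 3.05) came next, with ranges that overlapped each other. Neo1 encodes neogenin, a receptor for netrins and repulsive guidance molecules, and Efnb1 and Efna1 encode ephrins. Below them were Ephb4 at 25.8 ± 1.36, Plxna1 at 22.2 ± 1.59, Sema5a at 20.7 ± 1.15 and Slit3 at 18.6 ± 1.96. In this order each overlapped its neighbour, except that Ephb4 was above Plxna1 in every control library. The first 10 places thus held 6 receptors and 4 ligands, and 9 of these 10 genes stayed among the first 10 when the longest transcript was used as the length. In the mutant libraries Unc5b, Plxnd1 and Plxnb2 kept the first 3 places. Among the genes that passed the test, Epha2 moved from place 15 to place 21, Sema7a from 19 to 29, Efnb2 from 24 to 26, Sema3e from 45 to 54 and Ntn5 from 61 to 59.

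**Figure D1:**
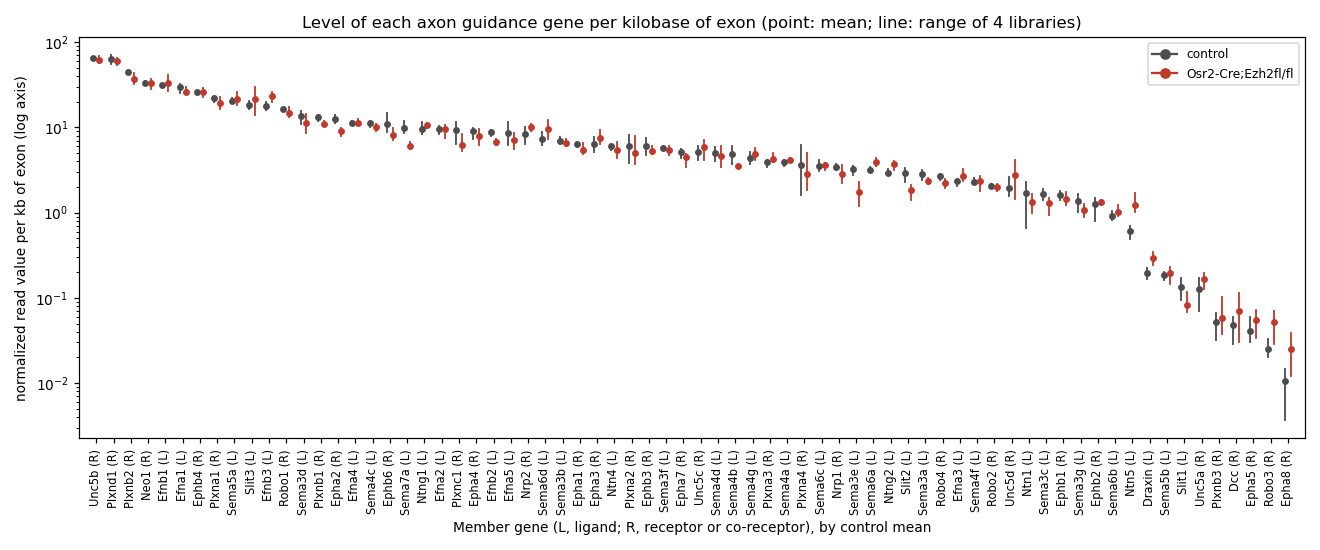
Normalized read value per kilobase of exon (log axis) for each of the 70 axon guidance genes, ordered by control mean, with the mean as a point and the range of the 4 libraries as a line for control and Osr2-Cre;Ezh2fl/fl. Unc5b, Plxnd1 and Plxnb2 are at the high end in both groups, and 7 genes at the low end were too low to be tested.

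Differences between Osr2-Cre;Ezh2fl/fl and control were tested with limma on log2(value + 1) over the 14854 genes that reached a value of 1 in 4 or more libraries. Of the 70 guidance genes, 63 passed this filter. The log2 fold changes given below are on the log2(value + 1) scale, which understates the change of low genes. At an adjusted p under 0.05, 4 of the 63 were lower in the mutant (6.35%), against 0.512% of all genes tested, and 1 was higher (1.59%), against 1.56% of all genes. In either direction, 2.07% of all genes passed. The lower genes were Sema3e, Sema7a, Epha2 and Efnb2 and the higher gene was Ntn5. Without the 3 enamel-rich libraries none of the 5 passed limma's test (adjusted p from 0.293 to 0.596), and the log2 fold changes were -1.0 for Sema3e, -0.74 for Sema7a, -0.29 for Epha2, -0.28 for Efnb2 and 0.61 for Ntn5. The median log2 fold change of the 63 genes was -0.10, while that of all genes tested was 0.01.

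At an unadjusted p under 0.05, 14 guidance genes were lower (22.2%, against 4.87% of all genes) and 6 higher (9.52%, against 8.27%). Receptors and ligands differed in their counts of higher genes, and less in their shares of lower genes. Among the 27 receptors tested, 7 were lower (25.9%) and 0 higher at this limit. Of the 27, 20 had a negative log2 fold change, with a median of -0.17. Among the 36 ligands, 7 were lower (19.4%) and 6 higher (16.7%). Of these ligands, 18 had a negative value and the median was -0.005. No test was made of the difference between receptors and ligands. Of all genes tested, 45.9% were negative. Under median-of-ratios scaling 21 receptors, 20 ligands and 52.0% of all genes were negative. Under quantile normalization it was 20 receptors, 21 ligands and 51.0% of all genes. With the enamel level as a covariate 17 receptors (63.0%) and 19 ligands (52.8%) were negative. At an unadjusted p under 0.05 the receptors then numbered 9 lower (33.3%, against 6.11% of all genes in that model) and 2 higher (7.41%, against 8.31%). The ligands numbered 7 lower (19.4%) and 4 higher (11.1%). Without the 3 enamel-rich libraries 20 receptors and 21 ligands were negative. At that limit 4 receptors (14.8%) and 4 ligands (11.1%) were then lower, against 2.92% of all genes. Higher were 0 receptors and 2 ligands (5.56%), against 3.93%.

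**Figure D2:**
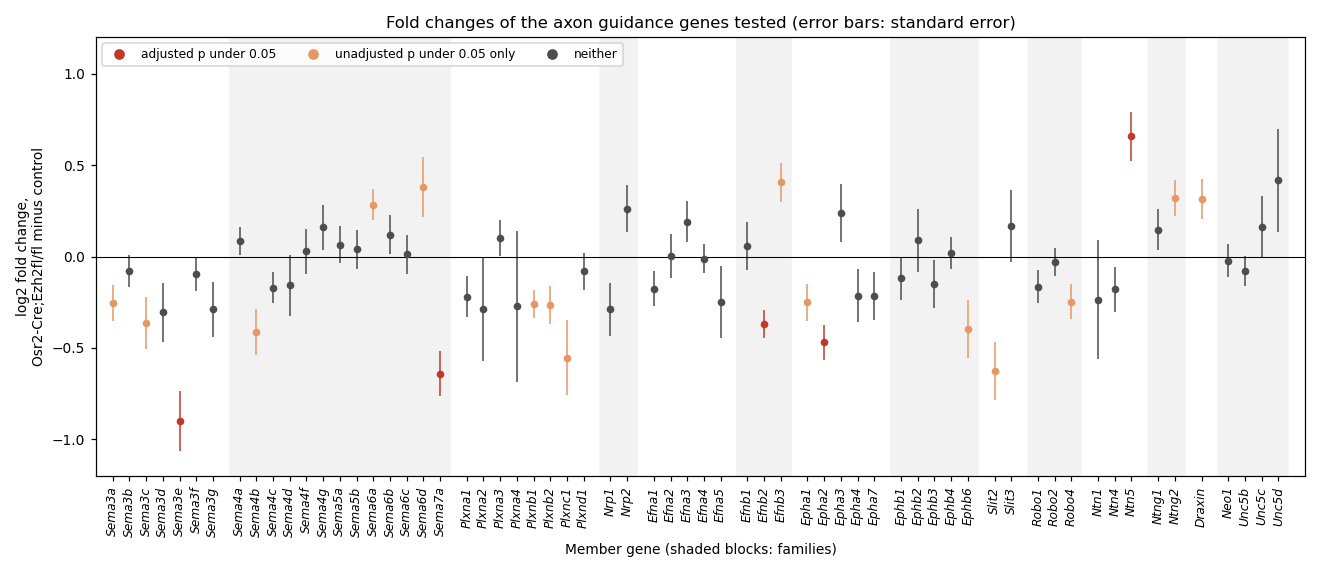
Log2 fold change (Osr2-Cre;Ezh2fl/fl minus control, with its standard error) of the 63 axon guidance genes tested, grouped in shaded blocks by family, with colour for the test each gene passed. Points run from -0.90 for Sema3e to 0.66 for Ntn5, and all 7 class 3 semaphorins lie below 0.

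Of the class 3 semaphorins, 1 passed the test and the others shared its sign. All 7 had a negative log2 fold change, against 45.9% of all genes tested, with a median of -0.29, and this held for all 7 under the other scalings, the enamel covariate and without the 3 enamel-rich libraries. Sema3e passed the test, at which 0.512% of all genes were lower. Sema3a and Sema3c were lower at an unadjusted p only, and Sema3b, Sema3d, Sema3f and Sema3g passed neither. At an unadjusted p under 0.05, 3 of the 7 were thus lower (42.9%, against 4.87% of all genes). Without the 3 enamel-rich libraries it was 1 of the 7 (14.3%, against 2.92%). Per kilobase, their summed level was 31.8 to 38.4 in the control and 28.1 to 31.6 in the mutant libraries.

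Sema3e, on chromosome 5 (14025276 to 14256689, plus strand), encodes the class 3 semaphorin that binds Plexin-D1 without a neuropilin. Its values were 32.8, 30.8, 31.6 and 25.9 in the control libraries and 11.2, 15.2, 16.7 and 21.1 in the Osr2-Cre;Ezh2fl/fl libraries. Every mutant library was below every control library. The mean was 30.3 ± 3.05 (SD, n = 4) in the control and 16.1 ± 4.07 in the mutant, 1.88-fold higher in the control, with a log2 fold change of -0.90 ± 0.16 (SE; limma, adjusted p = 0.0243, exact permutation p = 0.0286, the smallest that 4 against 4 libraries can give). Sema3e was the largest fall among the 63 genes and the only one of the 5 that also passed with the enamel level as a covariate (log2 fold change -0.95, limma adjusted p = 0.0308). Its call was lost when control library 1, 2 or 3 or mutant library 2 or 3 was left out, with an adjusted p in limma of up to 0.0984, and the log2 fold change stayed between -1.03 and -0.75.

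Its receptor did not follow. Plxnd1, a plexin of endothelial cells and of other cells of mesenchyme, was 511, 481, 409 and 442 in the control and 395, 482, 464 and 402 in the mutant libraries. The groups overlapped and the log2 fold change was -0.08 ± 0.10 (limma, adjusted p = 0.846). Sema3d, the class 3 semaphorin with the highest level per kilobase, was 94.1, 124, 116 and 136 in the control and 89.8, 73.3, 124 and 95.5 in the mutant libraries, which overlapped (log2 fold change -0.30 ± 0.16, limma adjusted p = 0.486). Sema3a, the repellent of dental nerve fibres, was 33.6 to 43.7 in the control and 29.9 to 35.2 in the mutant libraries. Its log2 fold change was -0.25 ± 0.10, which did not pass (limma, adjusted p = 0.298).

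The neuropilins, which are the co-receptors of class 3 semaphorins and of VEGF, had opposite signs. Nrp1 was 31.2 to 36.1 in the control, and 21.6, 35.5, 24.0 and 30.4 in the mutant libraries, with a log2 fold change of -0.29 (limma, adjusted p = 0.454). Nrp2 was 76.7, 120, 104 and 98.1 in the control and 108, 129, 127 and 111 in the mutant libraries. Its groups overlapped and the log2 fold change was 0.26 ± 0.13 (limma, adjusted p = 0.448).

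The semaphorins of classes 4 to 7, which are bound to the membrane, did not share a direction. Of 13 genes, 9 had a positive and 4 a negative log2 fold change, and the median was 0.04. Sema7a was lower in the mutant, and Sema4b and Sema6a had groups that did not overlap, in opposite directions. Of all 63 genes, 6 had all 4 mutant libraries below all 4 control libraries (9.52%, against 2.77% of all genes tested) and 3 had them all above (4.76%, against 5.76%).

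Sema7a, on chromosome 9 (57940112 to 57962865, plus strand), encodes a semaphorin with a lipid anchor that binds Plexin-C1 and beta1 integrins. It was 28.0, 39.6, 33.4 and 28.2 in the control libraries and 18.7, 18.2, 22.0 and 22.0 in the mutant libraries. All mutant values were below the lowest control value. The control mean of 32.3 ± 5.45 (SD, n = 4) was 1.60-fold the mutant mean of 20.2 ± 2.03, with a log2 fold change of -0.64 ± 0.12 (limma, adjusted p = 0.0303, exact permutation p = 0.0286). The call was kept without control library 1 and without control library 4 and was lost without each of the other 6 (limma, adjusted p up to 0.124), and the log2 fold change stayed between -0.70 and -0.54.

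Plxnc1, the receptor of Sema7A, was lower at an unadjusted p only. It was 52.9, 68.5, 94.2 and 97.8 in the control and 47.2, 44.8, 69.2 and 48.0 in the mutant libraries. The groups overlapped, and in each group the highest values were those of the enamel-rich libraries. The log2 fold change was -0.55 ± 0.21 (limma, adjusted p = 0.27), and it was -0.26 with the enamel level as a covariate (limma, adjusted p = 0.121).

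Sema4b, a ligand whose intracellular end binds scaffold proteins, was 21.2, 25.7, 29.4 and 34.0 in the control and 20.7, 19.8, 20.7 and 19.5 in the mutant libraries. The groups did not overlap, with control library 1 just above the mutant values, but the test was not passed (log2 fold change -0.41 ± 0.13, limma adjusted p = 0.169). Without control library 1 it was passed (limma, adjusted p = 0.0445). Sema6a, a ligand of Plexin-A2 and Plexin-A4, was 30.3, 28.3, 27.2 and 26.3 in the control and 31.3, 38.8, 33.7 and 33.7 in the mutant libraries. All mutant values were higher, and the log2 fold change was 0.28 ± 0.08 (limma, adjusted p = 0.145).

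Sema6d, a ligand of Plexin-A1 and Plexin-A4, was 92.8, 83.3, 67.3 and 65.8 in the control and 76.5, 130, 99.5 and 100 in the mutant libraries. The groups overlapped through mutant library 1 (log2 fold change 0.38 ± 0.16, limma adjusted p = 0.356). Sema5a, the semaphorin with the highest level per kilobase, was 372, 378, 376 and 418 in the control and 347, 417, 483 and 380 in the mutant libraries. Its groups overlapped, with a log2 fold change of 0.07 ± 0.10 (limma, adjusted p = 0.889).

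Among the 8 plexins tested, 7 had a negative log2 fold change and none passed the test. The median was -0.26. Plxnb1 and Plxnb2, receptors of class 4 semaphorins, and Plxnc1 were lower at an unadjusted p only (37.5% of the plexins, against 4.87% of all genes). Plxnb1 was 113, 127, 133 and 131 in the control and 108, 98.4, 114 and 101 in the mutant libraries, overlapping by a single mutant library. Its log2 fold change was -0.26 ± 0.08 (limma, adjusted p = 0.152). Plxnb2 was 356, 345, 332 and 337 in the control and 257, 338, 247 and 309 in the mutant libraries. Mutant library 2 lay within the control range and the other 3 lay below it (log2 fold change -0.26 ± 0.10, limma adjusted p = 0.3). With the enamel level as a covariate 5 of the 8 plexins were negative, and 4 were lower (against 6.11% of all genes in that model) and 1 higher (12.5%, against 8.31%) at an unadjusted p.

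**Figure D3:**
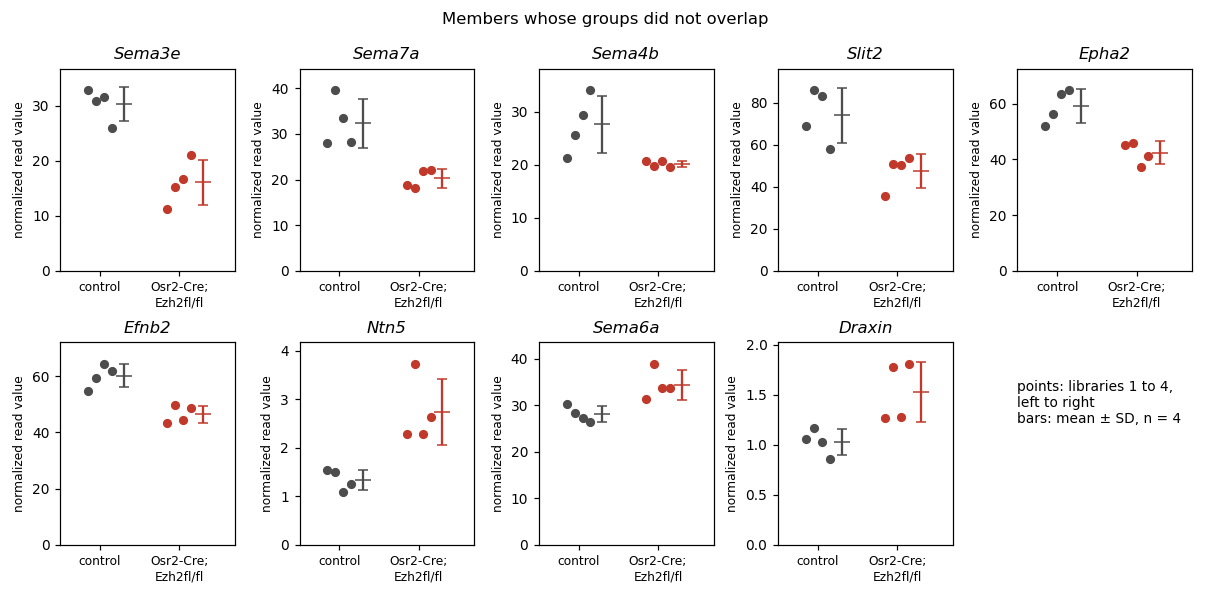
Normalized read value of the 9 axon guidance genes whose 4 Osr2-Cre;Ezh2fl/fl libraries all lay on one side of the 4 control libraries, with 1 point per library and the mean and SD of each group. Of these genes, 6 were lower and 3 higher in the mutant, and for Sema4b control library 1, at 21.2, lies just above the highest mutant value of 20.7.

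Of the 8 ephrins tested 1 was lower in the mutant, and of the 10 Eph receptors tested 1, against 0.512% of all genes. Epha2, on chromosome 4 (141301240 to 141329384, plus strand), encodes an Eph receptor of epithelial and other cells that binds ephrin-A ligands such as ephrin-A1. It was 52.1, 56.4, 63.6 and 64.8 in the control libraries and 45.3, 46.1, 37.2 and 41.4 in the mutant libraries. The groups did not overlap. The mean was 59.2 ± 6.05 (SD, n = 4) in the control and 42.5 ± 4.08 in the mutant, a ratio of 1.39, and the log2 fold change was -0.47 ± 0.10 (limma, adjusted p = 0.0418, exact permutation p = 0.0286). Its call was kept without control library 1 and without mutant library 1 and lost without each of the other 6 (limma, adjusted p up to 0.164). Without the 3 enamel-rich libraries the log2 fold change was -0.29, against -0.47 with all 8. With the enamel level as a covariate it was -0.44 (limma, adjusted p = 0.0827). Epha2 had a slope of 0.01 ± 0.02 (SE) log2 units per log2 unit of that level (limma, adjusted p = 0.776).

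Epcam, an epithelial surface protein outside the guidance families, was 95.6, 118, 119 and 114 in the control and 95.9, 67.5, 66.1 and 92.5 in the mutant libraries (log2 fold change -0.48 ± 0.14, limma adjusted p = 0.133). The 12 markers of dental epithelium all had a negative log2 fold change, with a median of -0.76. At an unadjusted p under 0.05, 5 of them were lower (41.7%, against 4.87% of all genes), and 0 passed the adjusted test. Enamel genes made up most of their summed value in the enamel-rich libraries, and the sum was 2604 to 32592 in the control and 2525 to 13816 in the mutant libraries. No marker was at or under 3 estimated reads in every library. The part of epithelial cells in the lower Epha2 was not tested.

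Efna1, an ephrin-A ligand known to bind EphA2 and the ephrin-A gene with the highest level per kilobase, was 46.8, 58.1, 54.3 and 59.1 in the control and 55.3, 44.8, 47.8 and 44.9 in the mutant libraries. The groups overlapped (log2 fold change -0.18 ± 0.10, limma adjusted p = 0.52). None of the 5 ephrin-A genes passed at an adjusted or an unadjusted p. Of the 5 EphA receptors tested, 4 had a negative log2 fold change, and Epha1 was lower at an unadjusted p only (-0.25 ± 0.10, limma adjusted p = 0.323). Exons of Epha1 overlap those of Zyx, and the strand used in counting is not stated, so that reads from genes with overlapping exons cannot be told apart here. In all, 16 of the 70 genes have such an overlap.

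Efnb2, on chromosome 8 (8617434 to 8661242, minus strand), encodes ephrin-B2, a ligand of EphB4 and other EphB receptors that is known as a marker of arterial endothelium. It was 54.8, 59.5, 64.3 and 62.0 in the control libraries and 43.2, 49.6, 44.2 and 48.6 in the mutant libraries. All mutant values were below the lowest control value. The mean was 60.1 ± 4.06 (SD, n = 4) in the control and 46.4 ± 3.16 in the mutant, a ratio of 1.30, with a log2 fold change of -0.37 ± 0.08 (limma, adjusted p = 0.0423, exact permutation p = 0.0286). This call was kept only without control library 1 and was lost without each of the other 7 libraries (limma, adjusted p up to 0.178).

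The other ephrin-B genes did not go the same way. Efnb1 was 111, 109, 108 and 105 in the control and 97.3, 144, 92.3 and 126 in the mutant libraries, on both sides of the control range (log2 fold change 0.06 ± 0.13, limma adjusted p = 0.927). Efnb3 was 63.3, 60.4, 51.2 and 51.1 in the control and 62.9, 83.6, 74.9 and 79.7 in the mutant libraries. Only mutant library 1 overlapped the control, and the log2 fold change was 0.41 ± 0.11 (limma, adjusted p = 0.104). Without mutant library 1, Efnb3 passed the test (limma, adjusted p = 0.0395).

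Ephb4, the receptor known to pair with ephrin-B2 on veins and the EphB gene with the highest level per kilobase, was 120, 127, 119 and 112 in the control and 116, 135, 106 and 129 in the mutant libraries. The groups overlapped and the log2 fold change was 0.02 ± 0.09 (limma, adjusted p = 0.964). It was -0.0013 under the median-of-ratios scaling, so its sign is not resolved. Ephb6, a receptor without kinase activity, was 55.2, 39.5, 37.5 and 33.8 in the control and 26.6, 36.8, 27.5 and 33.1 in the mutant libraries. Of these, mutant library 2 was the only one above the lowest control value, and the log2 fold change was -0.40 ± 0.16 (limma, adjusted p = 0.308).

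Endothelial markers are given beside Efnb2. All 12 had a negative log2 fold change, with a median of -0.13, from Kdr (-0.31, limma adjusted p = 0.0853) and Cdh5 (-0.24), whose groups did not overlap, to Cldn5 (-0.02) and Egfl7 (-0.01). At an unadjusted p under 0.05, 3 of the 12 were lower (25.0%, against 4.87% of all genes), 0 of them passed the adjusted test, and none was at or under 3 estimated reads in every library. Their summed value was 499 to 571 in the control and 460 to 523 in the mutant libraries, which overlapped. Robo4, a Robo receptor of endothelial cells, was 12.9, 15.1, 14.9 and 14.1 in the control and 13.0, 11.9, 12.5 and 10.2 in the mutant libraries, with a log2 fold change of -0.25 ± 0.10 (limma, adjusted p = 0.297). In bulk tissue, fewer cells of a type and less RNA per cell cannot be told apart. The part of endothelial cells in the lower Efnb2 was not tested.

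Slit2, a secreted repellent for axons and migrating cells, was lower in every mutant library without passing the test. It was 68.7, 86.0, 83.4 and 57.8 in the control and 35.4, 51.0, 50.1 and 53.7 in the mutant libraries. The means were 74.0 ± 13.2 (SD, n = 4) and 47.6 ± 8.24, and the log2 fold change was -0.63 ± 0.16 (limma, adjusted p = 0.0904, exact permutation p = 0.0286). Slit3, the Slit with the highest level per kilobase, was 125, 120, 101 and 105 in the control and 85.0, 183, 126 and 128 in the mutant libraries. Its mutant libraries lay on both sides of the control range (log2 fold change 0.17 ± 0.20, limma adjusted p = 0.839), and without mutant library 2 the sign turned (-0.01).

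Robo1 and Robo2, the receptors that bind Slits, passed no test. Robo1 was 279, 282, 269 and 270 in the control and 216, 287, 229 and 254 in the mutant libraries. Mutant library 2 was above the control range and the others below it, with a log2 fold change of -0.17 ± 0.09 (limma, adjusted p = 0.505). Robo2 was 33.6 to 36.4 in the control and 30.8 to 37.1 in the mutant libraries (log2 fold change -0.03 ± 0.08, limma adjusted p = 0.941).

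Among the netrins, Ntn5 was higher in the mutant and the other members passed no test. Ntn5, on chromosome 7 (45684022 to 45694556, plus strand), encodes netrin-5, a secreted netrin that is less studied than netrin-1. It was 1.53, 1.49, 1.10 and 1.25 in the control libraries and 2.29, 3.72, 2.27 and 2.63 in the mutant libraries. Every mutant library was above every control library. The values are low, at 63 to 110 estimated reads in the control and 120 to 244 in the mutant libraries. The mutant mean of 2.73 ± 0.682 (SD, n = 4) was 2.03-fold the control mean of 1.34 ± 0.206, and the log2 fold change was 0.66 ± 0.14 (limma, adjusted p = 0.0429, exact permutation p = 0.0286).

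The Ntn5 call was kept without mutant library 1 and lost without each of the other 7 libraries (limma, adjusted p up to 0.164), and it was also lost under both other scalings. Exons of Ntn5 overlap those of Sec1, a fucosyltransferase gene on the opposite strand. Sec1 was 1.32, 0.832, 0.615 and 0.821 in the control and 1.50, 2.06, 2.24 and 1.84 in the mutant libraries, again without overlap between the groups (log2 fold change 0.62 ± 0.13, limma adjusted p = 0.0505). Reads of Ntn5 and of Sec1 from the shared exons cannot be told apart without the strand.

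Ntn4, the netrin with the highest level per kilobase and a component of basement membranes, was 20.4, 23.1, 24.2 and 23.3 in the control and 25.0, 18.7, 16.5 and 20.4 in the mutant libraries (log2 fold change -0.18 ± 0.12, limma adjusted p = 0.635). Ntn1, the best studied netrin, was 4.20, 14.6, 11.9 and 12.3 in the control and 10.4, 6.95, 10.1 and 6.17 in the mutant libraries. Control library 1 was the lowest of all 8, and the groups overlapped (log2 fold change -0.24, limma adjusted p = 0.869).

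The netrin receptors Unc5b and Neo1 differed little between the genotypes although they were among the highest guidance genes. Unc5b was 401, 424, 417 and 401 in the control and 366, 432, 353 and 409 in the mutant libraries (log2 fold change -0.08 ± 0.08, limma adjusted p = 0.799). Neo1 was 271 to 310 in the control and 248 to 319 in the mutant libraries (log2 fold change -0.02 ± 0.09, limma adjusted p = 0.96). Unc5d had the largest positive log2 fold change among the receptors, yet it did not pass. It was 23.9, 19.0, 14.4 and 15.2 in the control and 13.4, 38.6, 27.5 and 23.4 in the mutant libraries, with both the lowest and the highest value in the mutant (log2 fold change 0.42 ± 0.28, limma adjusted p = 0.635).

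The netrin-G genes encode lipid-anchored synaptic proteins that bind NGL proteins and not Dcc. Ntng1 was 94.4, 85.7, 70.4 and 68.2 in the control and 80.6, 93.6, 82.6 and 93.8 in the mutant libraries, which overlapped (log2 fold change 0.15 ± 0.11, limma adjusted p = 0.698). Ntng2 was 12.9, 11.7, 10.9 and 11.1 in the control and 15.2, 15.9, 12.6 and 15.7 in the mutant libraries, overlapping only through mutant library 3 (log2 fold change 0.32 ± 0.10, limma adjusted p = 0.169). Draxin, a secreted repellent that binds Dcc and netrin-1, was 1.06, 1.17, 1.03 and 0.856 in the control and 1.27, 1.77, 1.27 and 1.81 in the mutant libraries. All mutant values were higher, and the log2 fold change of 0.31 ± 0.11 did not pass the test (limma, adjusted p = 0.238).

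The other 7 guidance genes were too low for the filter and were given no limma test. They were the receptors Epha5, Epha8, Robo3, Dcc, Unc5a and Plxnb3 and the ligand Slit1, of which Robo3 and Dcc are best known from neurons of the spinal cord and brain. Epha8 was the lowest, with 0 to 4 estimated reads in the control and 3 to 13 in the mutant libraries. Robo3 had 7 to 12 and 13 to 36 reads, and Slit1 had 31 to 65 and 23 to 48 reads. For the other 4 the estimated reads were 29 to 56 and 29 to 93 for Epha5, 24 to 48 and 20 to 98 for Dcc, 16 to 52 and 34 to 57 for Unc5a, and 11 to 31 and 12 to 46 for Plxnb3. In normalized read values Robo3 was 0.139, 0.174, 0.224 and 0.153 in the control and 0.284, 0.485, 0.198 and 0.478 in the mutant libraries, where 3 mutant libraries were above the control range (exact permutation p = 0.0571). Slit1 was 0.556, 0.778, 0.808 and 1.01 in the control and 0.455, 0.409, 0.693 and 0.413 in the mutant libraries, of which 3 were below it (exact permutation p = 0.0571).

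Guidance genes outside these families included 4 that were lower in the mutant and 0 that were higher. Of 61 genes for proteins that carry the signal inside the cell or assist the receptors, 59 were tested and 1 was lower in the mutant (1.69%, against 0.512% of all genes tested), with a median log2 fold change of -0.04. This was Plxdc1, which encodes a membrane protein with a plexin-like domain, at 1.74, 2.01, 1.74 and 1.8 in the control and 1.02, 1.21, 0.891 and 0.878 in the mutant libraries (log2 fold change -0.50 ± 0.09, limma adjusted p = 0.0282). Of 55 genes for other cues and receptors, 48 were tested, 3 were lower (6.25%), 0 were higher and the median was -0.09. Slitrk6, a membrane protein of the Slit- and Trk-like family, was 32.2, 37.5, 35.6 and 27.9 in the control and 17.5, 13.6, 21.6 and 13.1 in the mutant libraries (log2 fold change -0.99 ± 0.16, limma adjusted p = 0.0129). Cntn3, a contactin, and Met, the receptor of hepatocyte growth factor, were the others, with log2 fold changes of -0.63 ± 0.09 (limma, adjusted p = 0.00815) and -0.44 ± 0.09 (limma, adjusted p = 0.041). With 1 library left out, Cntn3 kept its call in all 8 fits and Met in none (limma, adjusted p 0.0539 to 0.175). Slitrk6 lost it without control library 2 or 3 (up to 0.0595), and Plxdc1 kept it only without mutant library 1 or 2 (up to 0.104 otherwise). At an unadjusted p under 0.05, 3 of the first list were higher (5.08%) and 5 lower (8.47%), and 8 of the second were higher and 8 lower (16.7% each), against 8.27% higher and 4.87% lower of all genes.

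Some guidance genes were highest in the enamel-rich libraries of both genotypes. In a model with a group term and the mean log2(value + 1) of Amelx, Ambn and Enam, chosen after the data were seen, 5 of the 63 genes rose with the enamel level at an adjusted p under 0.05 (7.94%, against 2.92% of all genes tested), and 0 fell (0.619% of all genes). A slope in either direction was found for 3.54% of all genes. They were the plexins Plxna2, Plxna4 and Plxnc1, the receptor Ephb3 and the ligand Efna5. The enamel level falls into 3 high and 5 lower libraries, so that the slope rests mostly on the contrast between these sets. No slope was tested within either set.

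Plxna2, a receptor of class 6 semaphorins, was 65.7, 85.0, 124 and 140 in the control and 72.4, 64.5, 135 and 68.1 in the mutant libraries. The 3 enamel-rich libraries held its 3 highest values, from 124 to 140, and the other 5 ranged from 64.5 to 85.0. Its slope was 0.21 ± 0.02 log2 units (SE) per log2 unit of enamel level (limma, adjusted p = 0.00015). Plxna4, a partner of Plxna2 in binding Sema6a, was 22.4, 36.4, 56.2 and 87.9 in the control and 29.1, 34.7, 70.0 and 26.4 in the mutant libraries. The same 3 libraries were highest, and its slope was 0.31 ± 0.03 (limma, adjusted p = 0.000377).

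The slope of Plxnc1 was 0.15 ± 0.02 (limma, adjusted p = 0.000917). Ephb3, a receptor of ephrin-B ligands, was 31.7, 36.9, 40.2 and 50.5 in the control and 35.4, 33.2, 40.0 and 32.8 in the mutant libraries, with a slope of 0.09 ± 0.02 (limma, adjusted p = 0.0363). Efna5, an ephrin-A ligand, was 24.9, 31.1, 34.6 and 47.2 in the control and 32.6, 22.4, 34.5 and 24.7 in the mutant libraries, with a slope of 0.13 ± 0.03 (limma, adjusted p = 0.0378). For Ephb3 and Efna5, too, the 3 enamel-rich libraries had the 3 highest values. The slopes of these 2 genes were the less stable ones, each past the threshold in 9 of 17 alternative fits, against all 17 for Plxna4 and 16 for Plxna2 and for Plxnc1. Both were lost when control library 1, 2 or 4 or any of mutant libraries 2, 3 and 4 was left out (limma, adjusted p up to 0.236 for Ephb3 and 0.223 for Efna5). With the enamel level in the model, the genotype difference of Plxna2 turned from negative to 0.13, that of Plxna4 to 0.33, that of Ephb3 to 0.02 and that of Efna5 to 0.0017, in log2 units.

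**Figure D4:**
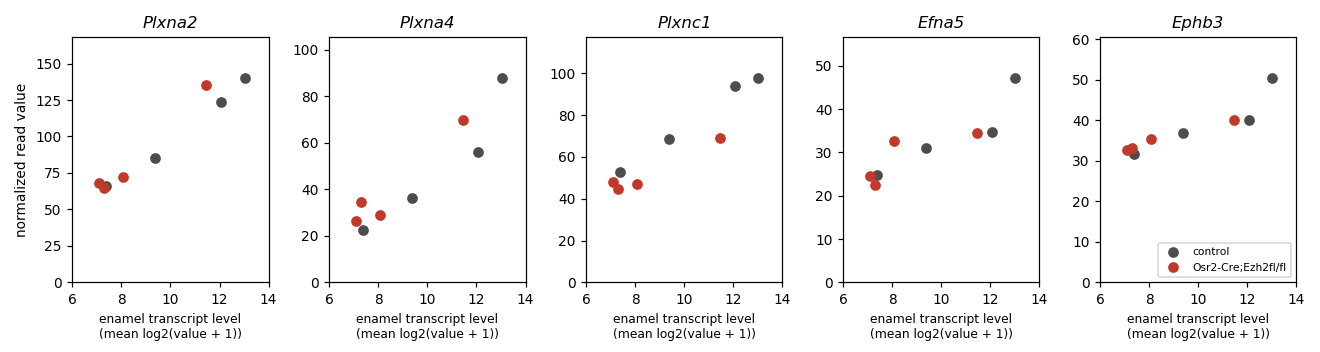
Normalized read value of the 5 axon guidance genes with a slope on the enamel level, against the mean log2(value + 1) of Amelx, Ambn and Enam in each of the 8 libraries, coloured by genotype. The 3 libraries with an enamel level of 11.47 to 13.02 hold the 3 highest values of each gene, from both genotypes.

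Markers of other cell types of the molar are given here beside the guidance genes. The odontoblast and dental papilla markers summed to 15858 to 19014 in the control and 13327 to 15780 in the mutant libraries, without overlap, and 0 of 10 passed the test. Of the osteoblast markers, 1 of 7 tested was higher, Ibsp (14.3%, against 1.56% of all genes), and 3 of 7 at an unadjusted p (42.9%, against 8.27%). Of the 7, 4 had a positive and 3 a negative log2 fold change, with a median of 0.03. Their summed values were 388 to 641 and 630 to 934. The neuronal markers, 6 of 12 of which could be tested, summed to 24.9 to 31.8 in the control and 33.7 to 44.2 in the mutant libraries. Most of this difference was Uchl1, with a mean of 10.2 in the control and 18.4 in the mutant (log2 fold change 0.80, limma adjusted p = 0.00895), and the other 5 tested passed neither limit, with Scn9a at 0.50, Calca at 0.30, Syt1 at 0.23, Elavl4 at 0.0014 and Stmn2 at -0.38. The median of the 6 was 0.27. The Schwann cell markers summed to 225 to 318 and 294 to 347, of which Pmp22 made up 169 to 274 and 252 to 294. Of the 6 tested, 3 had a positive and 3 a negative log2 fold change, and Erbb3 was lower (log2 fold change -0.42, limma adjusted p = 0.0388). The Erbb3 call was kept in 2 of 8 fits that each omitted a library (limma, adjusted p up to 0.166). It was lost with the enamel level as a covariate (limma, adjusted p = 0.0757). Pericyte markers (721 to 831 and 657 to 783), macrophage and osteoclast markers (370 to 1362 and 351 to 1074), skeletal muscle markers (8.34 to 49.5 and 5.49 to 12.6) and red blood cell markers (256 to 451 and 302 to 695) overlapped between the groups, with 0 genes passing. The part of any of these cell types in the guidance genes was not tested.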

How the data were processed

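RNA was measured in 8 libraries of PN day 3 molar mesenchyme, grouped by the sample labels. By the study's methods, the authors aligned trimmed single-end reads to mm10 with TopHat and then normalized by RPKM; the submitters' processing notes name STAR 2.5.3a, Partek and CASAVA 1.8.2, and which of these made the table is not resolved. The deposited values are a signal, scaled to a common 75th percentile and with no length factor, and 57.4% to 62.8% of low values were whole multiples of the library's smallest value (tolerance 0.01), so no count test was run. Estimated reads are the value divided by that smallest value, minus 1. The table holds 0 other columns of per-sample values. Beside 4 samples per group, the methods mention sequencing of 3 pairs, without naming the paired libraries or a paired test. The strand of counting is not given in the sources used here.

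Genes that reached a value of 1 in 4 or more libraries were tested with limma 3.58.1 in R 4.3.3 (mean-variance trend, log2(value + 1), two-sided), adjusted by the Benjamini-Hochberg method over 14854 genes. The model was tested on simulated data. Exact permutation tests covered the 70 arrangements of the libraries and are two-sided, with 0.0286 as the smallest p. Values are given in every library for genes that passed, genes whose groups did not overlap, the gene of each family with the highest level per kilobase and the 5 largest rises and falls. Genes named beyond this rule (Sema3a, Nrp1, Plxnb1, Plxnb2, Robo2, Robo4, Ntn1, Neo1, Ephb6, Epha1, Robo3 and Slit1, Epcam and Sec1) were chosen after their values were seen. The members and lists were chosen with earlier results of these data known. Coordinates and lengths came from GENCODE M21, which matched all 70 genes, and promoters from RefSeq. Sensitivity was examined with other pseudocounts, filters, scalings and limma settings, voom, array weights, an enamel covariate, a replicate block and each library left out. Leaving out the 3 enamel-rich libraries and the slope on the enamel level were added after the data were seen. Python 3.11.15, pandas 2.3.3 and matplotlib 3.10.9 were used.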

Additional observations from a re-analysis of the deposited data

Results flagged for a closer look

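In 5 of the 62 groups of 4 libraries examined, the highest or lowest library was far from the other 3 by Dixon's test at the 95% level. Chance flags about 1 in 20 groups, which is 3.1 of 62. Slit2 was 35.4 in mutant library 1 and 50.1 to 53.7 in the other mutant libraries. Sema5a was 418 in control library 4 and 372 to 378 in the other control libraries. Plxnc1 was 69.2 in mutant library 3 and 44.8 to 48.0 in the others. Plxna2 was 135 in the same library and 64.5 to 72.4 in the others, and this is the mutant library with the high enamel level. Ezh2 was 55.0 in control library 1 and 38.3 to 39.6 in the other control libraries.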

How the results depend on the processing

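All 5 calls were close to the threshold. The number of guidance genes called higher (1) became 0 with a pseudocount of 5, a filter at a value of 10, median-of-ratios scaling, quantile normalization, the enamel covariate or the replicate block, and without the 3 enamel-rich libraries. The number called lower (4) became 2 with the filter at 10, without the mean-variance trend or with the enamel covariate, and 0 without the enamel-rich libraries, where 1 gene of all those tested was higher and 0 were lower in limma. In that fit of 5 libraries, 2 guidance genes were higher (3.17%, against 3.93% of all genes) and 8 lower (12.7%, against 2.92%) at an unadjusted p under 0.05. The filter at 10 left 88 higher and 31 lower of all genes. Array weights gave 8 higher and 23 lower guidance genes, 2165 and 1875 of all genes, and 10 and 30 guidance genes at an unadjusted p (15.9% and 47.6%, against 22.0% and 18.7% of all genes), with a weight of 9.66 on mutant library 4 alone. Over the fits that each omitted a library, the counts of guidance genes ranged from 0 to 2 higher and 0 to 4 lower, those of all genes from 108 to 292 and from 20 to 92, and those with an enamel slope from 3 to 5. Enamel slopes numbered 3 without the trend. Without the 3 enamel-rich libraries the 5 genes kept their sign, and 2 control against 3 mutant libraries limit that test. The cause of the other lost calls was not tested.

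Replicate numbers are shared by the groups, but same-numbered libraries did not deviate together (correlations of -0.34, -0.08, 0.22 and -0.43), so the numbers were not taken to pair the libraries. With a replicate block 0 guidance genes were called higher and 0 lower, against 64 and 9 of all genes. At an unadjusted p, 10 were lower (15.9%, against 3.68% of all genes), 4 of them receptors, and 6 were higher (9.52%, against 6.18%), and 1 enamel slope was past the threshold.

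A sign turned only in genes that passed no test of the genotype. Ephb4 was -0.0013 under median-of-ratios scaling and -0.055 with the enamel covariate, and it ranged from -0.033 to 0.081 over the fits that omitted a single library. Over such fits Slit3 ranged from -0.013 (without mutant library 2) to 0.35, Sema5a from -0.020 (without mutant library 3) to 0.14, Efnb1 from -0.057 (without mutant library 2) to 0.15 and Plxna4 from -0.60 to 0.045 (without control library 4). Without the enamel-rich libraries Ntng1 was -0.013 and Plxna4 was 0.061. With the enamel covariate Efnb1 was -0.041, Ephb3 0.017, Efna5 0.0017, Plxna2 0.13 and Plxna4 0.33. A difference in the 7 lowest genes was limited by their few estimated reads.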

Other observations

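Several receptors and ligands had their lowest values in the same mutant libraries. Plxna1 was 149 and 152 in mutant libraries 1 and 3 and 207 and 187 in mutant libraries 2 and 4, where the control range was 181 to 214. Plxnb2, Robo1, Nrp1 and Unc5b were likewise lowest in mutant libraries 1 and 3. None of these receptors passed the adjusted test, and Plxnb2 was lower at an unadjusted p only. The ligands Efnb1, Efnb2 and Sema3a were also lowest in mutant libraries 1 and 3. These genes were picked after their values were seen. Ephb6 passed limma's test with the enamel level as a covariate (log2 fold change -0.58, adjusted p = 0.0379) and not without it (adjusted p = 0.308).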
